A study of Homo sapiens with 8 samples.

Results

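The 35 genes described here encode the enzymes and carriers that activate fatty acids and break them down by beta-oxidation, with the nuclear receptor PPARA. They were taken by symbol from a list of the pathway's genes, and all 35 are among the 62700 gene entries of the deposited count table. Their messenger RNA was compared in foam cells made from THP-1, a human monocytic leukaemia line. All cells were first turned into macrophages by 72 h in PMA, a phorbol ester, at 50 ng/mL and loaded with acetylated low-density lipoprotein for 48 h. The DMSO group (4 libraries) received the solvent DMSO. The AF group (4 libraries) received 0.5 µM auranofin, a gold-containing antirheumatic drug whose known target is thioredoxin reductase. The labels give DMSO below 0.1% by volume for both groups. The sample protocol gives either treatment for 24 h ahead of the lipid and keeps it on during loading, whereas the design text of the series places it after loading. THP-1 is a single cancer line, and no cells without lipid are among the samples compared here. The labels do not say that the 4 libraries of a group came from separate cultures, so every p-value here reflects library-to-library spread alone, and that spread may be technical.

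A fatty acid enters metabolism when an acyl-CoA synthetase joins it to coenzyme A. Long chains then cross into mitochondria as carnitine esters, and each turn of beta-oxidation runs through an acyl-CoA dehydrogenase, a hydratase, the second dehydrogenase and a thiolase, releasing acetyl-CoA and passing electrons to the respiratory chain. Peroxisomes run a parallel pathway for very long and branched chains, and the fatty acid receptor PPARα switches on many of these genes. In macrophages that take up modified lipoprotein, activated fatty acids are either oxidised or esterified to cholesterol and glycerol for storage in lipid droplets.

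The libraries held 19336073 (DMSO replicate 4) to 32325981 (AF replicate 2) counts. AF replicate 1 stood apart: 18 ribosomal RNA entries took 34.8% of the counts there and 0.743% to 0.963% elsewhere. All 13 macrophage markers examined passed the filter on low counts, with 3 higher and 3 lower in AF and a summed level of 5979 to 6677 CPM in DMSO and 5448 to 5829 CPM in AF. CPM is a gene's count scaled to the size of its library, with sizes adjusted by the TMM method, which sets aside the most extreme genes. Of 14 markers of lymphocytes, epithelium, fibroblasts, hepatocytes, erythroid cells and adipocytes, 1 passed the filter. Their summed level was 0.865 to 1.71 CPM in DMSO and 0.741 to 2.12 CPM in AF, with MS4A1, EPCAM, COL1A2, HBB and ADIPOQ at 0 counts in every library. In bulk RNA, fewer cells of a type and less RNA per cell cannot be told apart.

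Auranofin-treated foam cells had more mRNA of 6 of the 35 genes and less of 0. The 6 were the long-chain acyl-CoA synthetases ACSL1, ACSL4 and ACSL5, the auxiliary enzymes for unsaturated chains ECI2 and DECR1, and the receptor gene PPARA, with rises of 19.3% to 47.4%. None of the 12 core enzymes of the mitochondrial cycle and its electron transfer passed the test. Of all genes tested 15.4% passed in either direction, so 0 in so short a list does not set these genes apart. Calls for the shorter steps below are to be read against that share too. All 35 genes passed the filter on low counts, and their counts ran from 145 to 9186 per library. With edgeR's quasi-likelihood test and Benjamini-Hochberg adjustment over 17535 genes at a threshold of 0.05, 17.1% of the 35 were higher, against 7.62% of all genes tested, and 0 were lower, against 7.81%. At an unadjusted p below 0.05 in edgeR's test, 9 were higher and 3 lower, and the share of all genes at that level is not given here. DESeq2 called 8 higher and 0 lower. It also called more of all genes, 1581 higher and 1658 lower, against 1336 and 1369 with edgeR. The median log2 fold change of the 35, AF over DMSO, was 0.06, against 0.01 for all genes tested, with 23 positive and 12 negative values. The summed level of the 35 genes was 2294 ± 36.1 CPM in DMSO and 2498 ± 69.3 CPM in AF (mean ± SD, n = 4 per group, as for all means below). Each AF library lay wholly above the DMSO range for 9 of the 35 (25.7%, against 9.86% of all genes) and wholly below it for 2 (5.71%, against 9.68%).

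**Figure D1:**
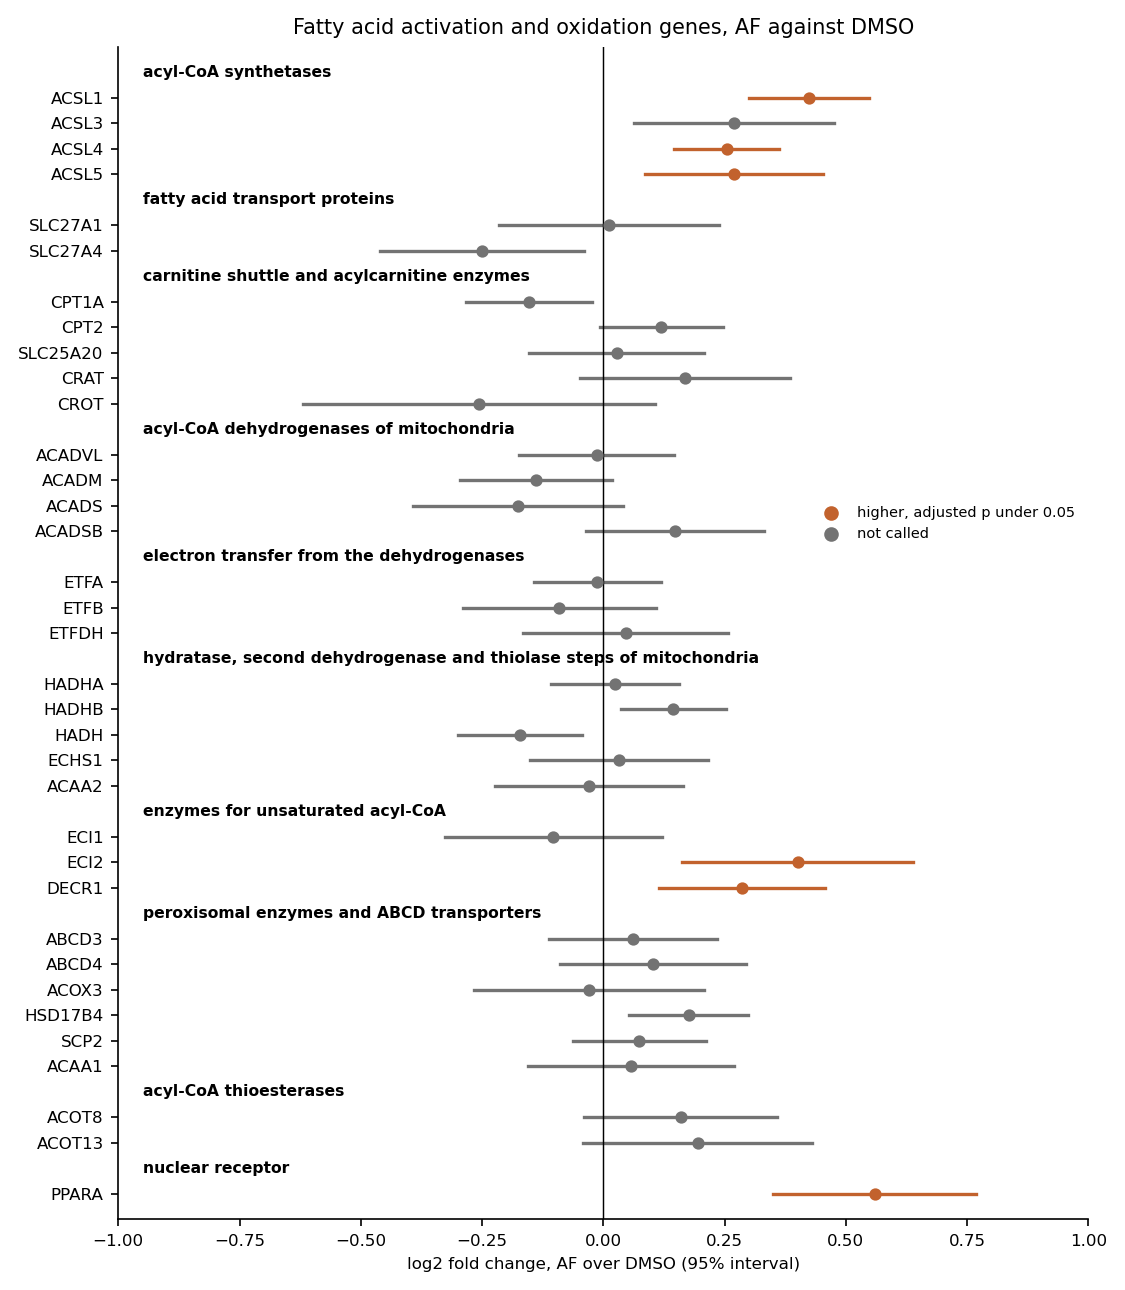
Log2 fold change of each of the 35 genes (x axis, AF over DMSO) with its 95% interval, grouped by role along the y axis, for 4 libraries per group. Orange marks the 6 genes that passed the test, all to the right of 0, and the gray points of the core mitochondrial steps lie between -0.18 and 0.15.

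Proximal promoters are shown because PPARα and the estrogen-related receptors are known regulators of this pathway and 6 of its genes rose. RefSeq promoter sequence (GRCh38.p14) was found for 31 of the 35 genes. CRAT, DECR1, ETFDH and ACAA1 had no entry. The windows searched are the 250 bases before the RefSeq start, which need not be the only start. In GENCODE 29, 10 of the 31 windows lie wholly within the span of their gene, those of ACSL1, ACSL5 and HADHB among them, and 26 hold bases of the gene's own exons. For the 5 called genes with an entry, the window up to the first such exon base is given 5′ to 3′ on the gene's own strand. Capitals mark GGGCGG, the core of the GC box, or AGGTCA, the half-site of nuclear receptors, on either strand.
ACSL1 (chr4:184826120-184826218, minus strand): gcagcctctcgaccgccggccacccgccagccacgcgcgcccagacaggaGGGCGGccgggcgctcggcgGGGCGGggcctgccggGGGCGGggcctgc
ACSL4 (chrX:109733404-109733507, minus strand): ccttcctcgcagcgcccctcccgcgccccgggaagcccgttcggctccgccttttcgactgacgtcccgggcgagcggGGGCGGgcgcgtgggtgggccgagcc
ACSL5 (chr10:112375018-112375234, plus strand): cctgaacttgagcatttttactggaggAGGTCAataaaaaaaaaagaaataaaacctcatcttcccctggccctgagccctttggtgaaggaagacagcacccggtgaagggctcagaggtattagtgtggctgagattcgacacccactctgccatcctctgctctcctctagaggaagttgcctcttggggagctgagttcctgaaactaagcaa
ECI2 (chr6:4135598-4135825, minus strand): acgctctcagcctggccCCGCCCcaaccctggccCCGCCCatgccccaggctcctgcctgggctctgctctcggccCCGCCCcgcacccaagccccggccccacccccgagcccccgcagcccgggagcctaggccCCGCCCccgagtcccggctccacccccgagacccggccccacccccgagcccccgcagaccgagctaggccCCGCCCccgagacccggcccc
PPARA (chr22:46150276-46150520, plus strand): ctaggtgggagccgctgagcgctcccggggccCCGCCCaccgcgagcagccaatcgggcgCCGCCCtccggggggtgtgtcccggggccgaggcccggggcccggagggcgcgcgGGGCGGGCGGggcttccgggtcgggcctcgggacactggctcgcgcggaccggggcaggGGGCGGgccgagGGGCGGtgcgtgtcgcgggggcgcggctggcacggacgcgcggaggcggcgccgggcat
These runs hold 3 GC boxes in ACSL1, 1 in ACSL4, 5 in ECI2, 6 in PPARA and 0 in ACSL5, and AGGTCA once, in ACSL5. The ACSL5 run lies inside the gene, after the first start in GENCODE. Over the whole windows, G and C made up 50.0% in ACSL5, 83.6% in ACSL1, 77.2% in ACSL4, 81.6% in ECI2 and 84.4% in PPARA. The median was 68.8% over the 31 genes, 64.8% over 11303 tested genes with a promoter entry and 58.0% over all 35116 entries.

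All motifs were searched on both strands of these windows. AGGTCA was in 1 of 31 windows (3.23%), that of ACSL5, against 8.51% of those of tested genes. The PPAR-type direct repeat, AGGTCA written out and repeated after 1 free base, was in 0 of 31, against 0.0177%. The estrogen-related receptor motif TCAAGGTCA, which overlaps AGGTCA, was in 0 of 31, against 0.168%. The antioxidant response element core TGACNNNGC was in 4 of 31 (12.9%), against 12%. The 4 were ETFA, ABCD4, ACOX3 and ACOT13, and none of them passed the test. GGGCGG, which was searched after the sequences and values had been seen, was in 26 of 31 (83.9%), against 65.2% of tested genes. It was in 4 of the 5 called genes. A match is a run of letters only, and a window without one says nothing about binding elsewhere.

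The 4 ACSL genes of fatty acid activation encode long-chain acyl-CoA synthetases. Of these, 3 rose, against 7.62% of all genes tested, with a median log2 fold change of 0.27. One of the 3 calls, that of ACSL5, was unstable, and the lists are too short to rank the steps by calls. ACSL1 (ENSG00000151726.13, chromosome 4, 184755595 to 184826818, minus strand), the main isoenzyme of fat-storing and oxidative tissues, stood at 176, 172, 183 and 188 CPM in DMSO replicates 1 to 4 and at 227, 253, 254 and 232 CPM in AF. The lowest AF library lay above the highest DMSO library, and the means were 179.9 ± 7.36 and 241 ± 14 CPM. That is a log2 fold change of 0.42 ± 0.06 (SE, 95% interval 0.30 to 0.55, edgeR adjusted p = 0.000237), a rise of 34.2%.

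ACSL4 (ENSG00000068366.19, chromosome X, 109624244 to 109733403, minus strand) prefers arachidonic acid and other polyunsaturated chains. Its values were 167, 159, 165 and 174 CPM in DMSO and 197, 189, 199 and 206 CPM in AF, without overlap. The log2 fold change was 0.25 ± 0.05 (95% interval 0.15 to 0.36, edgeR adjusted p = 0.00385), a rise of 19.3%. ACSL5 (ENSG00000197142.10, chromosome 10, 112374018 to 112428380, plus strand), an isoenzyme of mitochondria and the endoplasmic reticulum, was far less abundant. It had 17.6, 17.8, 17.8 and 16.2 CPM in DMSO and 20.3, 21.1, 21.7 and 20.4 CPM in AF, again without overlap. Its log2 fold change was 0.27 ± 0.09 (95% interval 0.09 to 0.45) with an edgeR adjusted p of 0.0465. That call was lost when any single DMSO library was left out (adjusted p of 0.0704, 0.0766, 0.0808 and 0.0794 without replicates 1 to 4), without AF replicate 2 (0.0738) and without AF replicate 3 (0.109).

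ACSL3, the isoenzyme of lipid droplets, did not pass the test although its estimate was as large as that of ACSL5. Its values were 198, 166, 159 and 213 CPM in DMSO and 219, 197, 213 and 259 CPM in AF. The groups overlapped, and replicate 4 was the highest library of each. The log2 fold change was 0.27 ± 0.10 (95% interval 0.06 to 0.48, edgeR adjusted p = 0.0727). It passed without DMSO replicate 4 (0.35, adjusted p = 0.0246), without AF replicate 2 (0.32, adjusted p = 0.0420) and with DESeq2 (adjusted p = 0.0441).

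**Figure D2:**
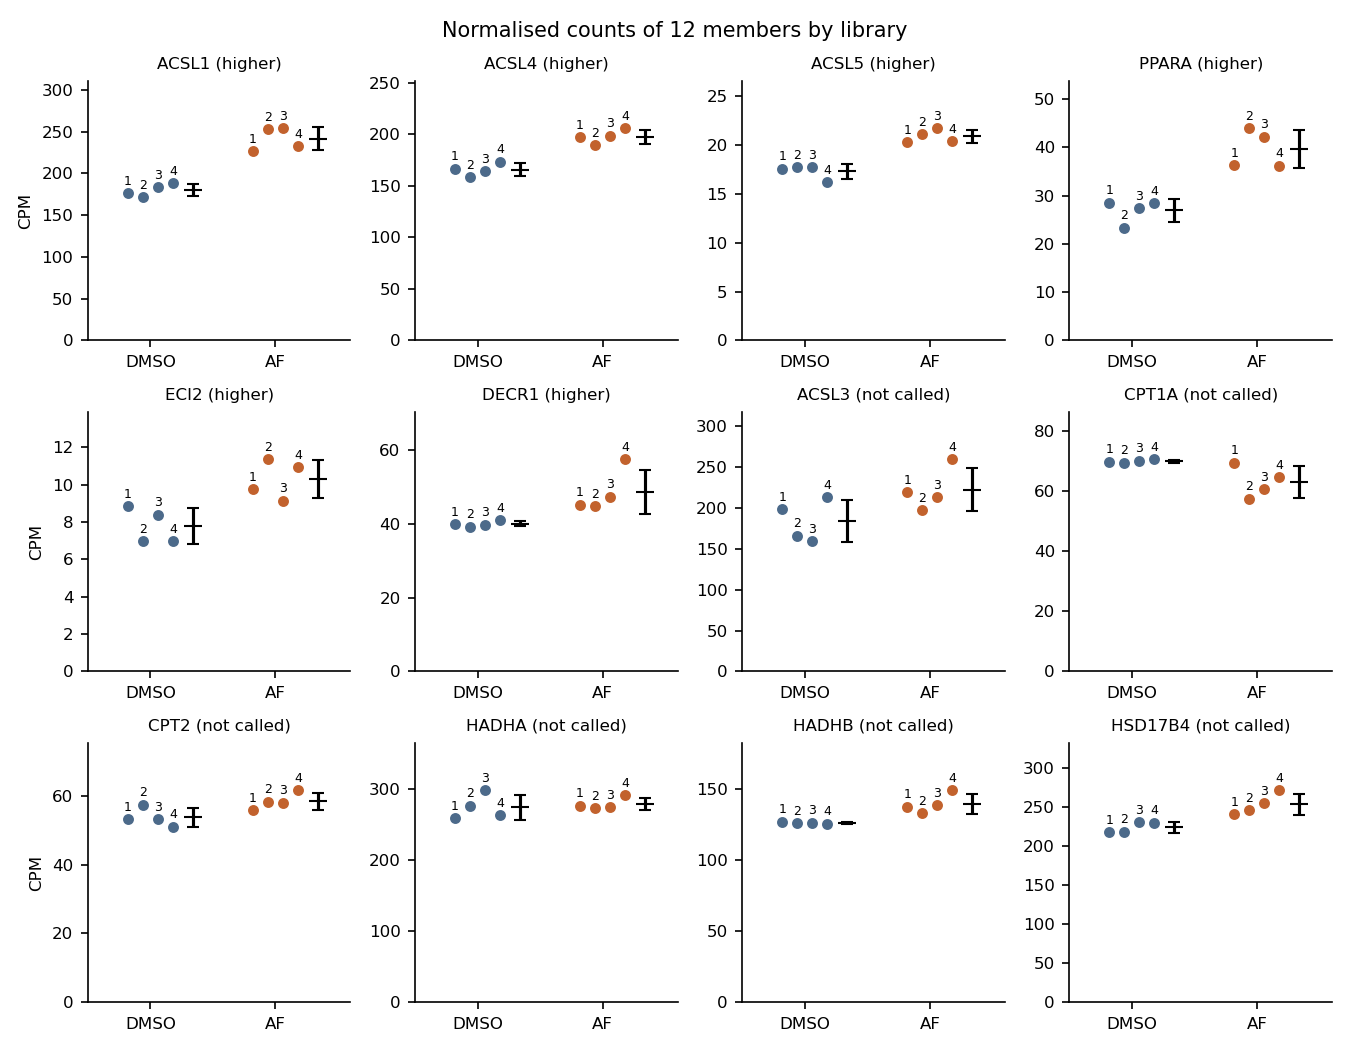
Normalised counts (CPM, y axis from 0) of 12 of the 35 genes in each of the 4 DMSO (blue) and 4 AF (orange) libraries, with the replicate number above each point and the mean ± SD beside each group. ACSL1, ACSL4, ACSL5, PPARA, ECI2 and DECR1 show no overlap between groups, whereas ACSL3, CPT2 and HADHA do.

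Levels of different genes were compared per length, as RPKM, the CPM divided by kilobases of exon. The length joins all exons annotated for a gene, such as 10452 bases for CPT2 and 6565 for CPT1A. The mRNA present may hold only part of them, so orders and ratios between genes depend on the length used. Summed over the 4 ACSL genes, this level was 84.0 ± 5.00 RPKM in DMSO and 104.9 ± 3.78 RPKM in AF. ACSL1 supplied 34.1 ± 1.46% of the sum in DMSO and 36.7 ± 2.6% in AF, ACSL4 30.8% and 29.4%, ACSL3 30.2% and 29.2%, and ACSL5 4.89% and 4.71%. The mixture of isoenzymes therefore moved by less than 3 percentage points for each gene.

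Uptake proteins with acyl-CoA synthetase activity were not called. SLC27A1 (FATP1) had 20.1 ± 1.51 CPM in DMSO and 20.3 ± 2.45 CPM in AF, a log2 fold change of 0.01 ± 0.11. SLC27A4 (FATP4) had 13.6, 17.5, 15.8 and 15.2 CPM in DMSO and 14.3, 13.4, 12.8 and 11.8 CPM in AF, with 1 DMSO library inside the AF range. Its log2 fold change was -0.25 ± 0.10 (edgeR adjusted p = 0.101), and it passed only when DMSO replicate 1 was left out (-0.31, adjusted p = 0.0464) or when replicates 2 and 3 were fitted alone.

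None of the 5 carnitine-linked genes passed the test with edgeR or DESeq2, and 1, CPT1A, had an unadjusted p below 0.05. CPT1A, whose product makes long-chain acylcarnitine, is inhibited by malonyl-CoA and limits the rate of mitochondrial oxidation, had 69.7, 69.3, 70.0 and 70.5 CPM in DMSO. In AF it had 69.3, 57.4, 60.5 and 64.6 CPM. The DMSO libraries were nearly equal, and 3 AF libraries lay below them while AF replicate 1 lay at the level of the lowest. The log2 fold change was -0.15 ± 0.06 (95% interval -0.28 to -0.02, edgeR adjusted p = 0.106). CPT2, which turns acylcarnitine back into acyl-CoA inside mitochondria, had 53.2, 57.4, 53.3 and 51.0 CPM in DMSO and 55.7, 58.2, 57.9 and 61.6 CPM in AF. Its groups overlapped, with a log2 fold change of 0.12 ± 0.06 (95% interval -0.01 to 0.25). With the lengths used here, the ratio of CPT1A to CPT2 was 2.08 ± 0.115 in DMSO and 1.72 ± 0.179 in AF. The ranges of this ratio overlapped (1.92 to 2.20 in DMSO and 1.57 to 1.98 in AF).

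SLC25A20, the carnitine-acylcarnitine translocase of the inner membrane, had 26.9, 29.6, 29.6 and 28.1 CPM in DMSO and 28.6, 30.2, 27.8 and 29.8 CPM in AF. Those ranges almost coincided, and the log2 fold change was 0.03 ± 0.08 (95% interval -0.15 to 0.21). CRAT, which handles acetyl and other short groups, had means of 23.9 ± 2.38 and 26.8 ± 2.16 CPM (log2 fold change 0.17 ± 0.10). CROT, the peroxisomal enzyme for medium chains, had the widest interval of the 35. Its values were 6.60, 6.75, 7.32 and 11.05 CPM in DMSO and 7.70, 5.04, 6.76 and 7.10 CPM in AF (log2 fold change -0.26 ± 0.17, 95% interval -0.62 to 0.11).

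The 12 genes of the mitochondrial cycle and its electron transfer had 0 calls with edgeR and with DESeq2. With edgeR 15.4% of all genes tested were called, and 12 genes are too few to tell 0 calls from that share. At an unadjusted p below 0.05, 1 was higher (HADHB) and 1 lower (HADH). Over the 12 genes the log2 fold changes ran from -0.18 to 0.15 with a median of -0.01, 5 were positive and 7 negative, and every 95% interval lay between -0.39 and 0.33. ACADVL, the dehydrogenase for very long chains, had 148, 159, 150.4 and 128 CPM in DMSO and 146, 158, 149 and 128 CPM in AF. Its groups covered nearly the same range, with replicate 4 lowest in both, and the log2 fold change was -0.01 ± 0.07 (95% interval -0.17 to 0.15). ACADM, the medium-chain dehydrogenase, had 67.8, 65.8, 74.5 and 74.2 CPM in DMSO and 64.2, 56.1, 63.7 and 72.4 CPM in AF. The groups overlapped through AF replicate 4, and the log2 fold change of -0.14 ± 0.07 (edgeR adjusted p = 0.224) passed the test without that library (-0.20, adjusted p = 0.0476).

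ACADS, for short chains, had means of 15.6 ± 1.41 and 13.9 ± 1.55 CPM (log2 fold change -0.18 ± 0.10). ACADSB, for branched short chains, had 9.05 ± 0.419 and 10.0 ± 0.270 CPM (0.15 ± 0.09) without overlap between groups, at an edgeR adjusted p of 0.267. The electron transfer flavoprotein takes electrons from these dehydrogenases, and ETFDH passes them on to ubiquinone. Its subunit genes ETFA and ETFB had log2 fold changes of -0.01 ± 0.06 and -0.09 ± 0.09, and ETFDH had 0.05 ± 0.10.

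HADHA and HADHB encode the α and β subunits of the trifunctional protein, which carries out the later steps for long chains. RefSeq places their starts 307 bases apart on opposite strands of chromosome 2. HADHB had 127, 126, 126 and 125 CPM in DMSO, the tightest set of the 35 with a coefficient of variation of 0.468%, and 137, 133, 139 and 149 CPM in AF. Every AF library lay above the DMSO range, but the log2 fold change of 0.14 ± 0.05 (95% interval 0.04 to 0.25) did not pass the test (edgeR adjusted p = 0.0689). HADHA had 258, 276, 298 and 263 CPM in DMSO and 276, 272, 274 and 291 CPM in AF, with overlap and a log2 fold change of 0.02 ± 0.06. Per length, HADHA was 2.12 ± 0.137 times as abundant as HADHB in DMSO and 1.95 ± 0.0426 times in AF, and those ranges overlapped. The DMSO libraries spread more for HADHA than for HADHB.

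HADH, the dehydrogenase for medium and short hydroxyacyl chains, had the opposite sign to HADHB. Its values were 55.4, 56.3, 59.9 and 55.5 CPM in DMSO and 53.2, 47.1, 50.2 and 51.2 CPM in AF. All AF libraries lay below DMSO, at a log2 fold change of -0.17 ± 0.06 (95% interval -0.30 to -0.04, edgeR adjusted p = 0.0665). It passed as lower with a filter at a mean of 5 CPM (adjusted p = 0.0339), and with ribosomal RNA left out of the library totals in place of TMM scaling (-0.19, adjusted p = 0.0381). ECHS1, the short-chain hydratase, and ACAA2, the thiolase of the last step, had log2 fold changes of 0.03 ± 0.09 and -0.03 ± 0.09.

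**Figure D3:**
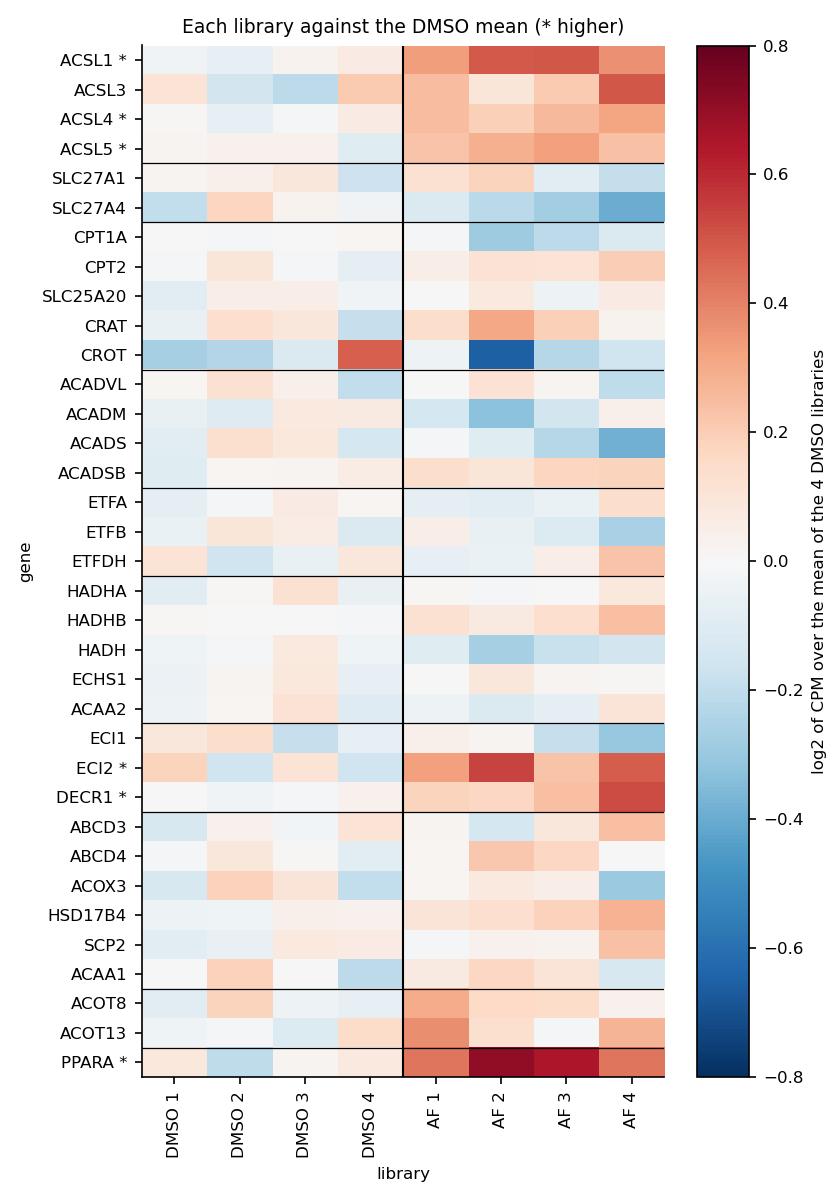
Each of the 8 libraries (columns) against the mean of the 4 DMSO libraries for each of the 35 genes (rows), as log2 of the CPM ratio from blue (lower) to red (higher), with roles separated by lines and an asterisk on genes that passed the test. The block of ACSL genes and the PPARA row are red in all 4 AF libraries, and the mitochondrial block is pale with no common sign.

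Unsaturated chains need auxiliary enzymes that move or reduce double bonds, and 2 of those 3 genes rose, against 7.62% of all genes tested. DECR1 (ENSG00000104325.6, chromosome 8, 90001405 to 90052092, plus strand), the mitochondrial 2,4-dienoyl-CoA reductase, had 40.0, 39.3, 39.8 and 40.9 CPM in DMSO and 45.2, 44.8, 47.3 and 57.5 CPM in AF. The DMSO libraries were close together, all AF libraries lay above them, and AF replicate 4 was the highest by far. The log2 fold change was 0.29 ± 0.08 (95% interval 0.11 to 0.46, edgeR adjusted p = 0.0259), a rise of 21.9%. Without AF replicate 4 it was 0.20 (adjusted p = 0.0631), and the call was also lost without DMSO replicates 1, 2 or 3 (adjusted p of 0.0751, 0.0926 and 0.0868) or AF replicate 3 (0.0679).

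ECI2 (ENSG00000198721.12, chromosome 6, 4115689 to 4135597, minus strand), an enoyl-CoA isomerase of peroxisomes and mitochondria, was a low-abundance gene. It had 8.83, 6.98, 8.39 and 6.97 CPM in DMSO and 9.77, 11.4, 9.14 and 10.9 CPM in AF. The groups came close without overlapping, at a log2 fold change of 0.40 ± 0.11 (95% interval 0.16 to 0.64, edgeR adjusted p = 0.0251). It no longer passed once DMSO replicate 2 (adjusted p = 0.0881), DMSO replicate 4 (0.0609) or AF replicate 2 (0.0773) was removed. A gene on the opposite strand, TEX56P, covers 27.1% of its exon bases in GENCODE 29 and had 0 to 2 counts per library. ECI1, the mitochondrial isomerase, had 12.4 ± 1.28 and 11.6 ± 1.32 CPM (log2 fold change -0.10 ± 0.10).

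Peroxisomal oxidation showed 0 calls with edgeR and 1 with DESeq2 among 6 genes, with a median log2 fold change of 0.07. HSD17B4, the bifunctional enzyme for branched and very long chains, came nearest. It had 218, 219, 231 and 230.1 CPM in DMSO and 241, 247, 255 and 272 CPM in AF, without overlap. The log2 fold change was 0.18 ± 0.06 (95% interval 0.05 to 0.30) at an edgeR adjusted p of 0.0520, and it passed with DESeq2 (0.0245) and without AF replicate 1 (0.0460). ACOX3, an oxidase for branched chains, had 14.4, 18, 17 and 13.8 CPM in DMSO and 16.0, 16.7, 16.4 and 12.9 CPM in AF, with replicate 4 lowest in both and a log2 fold change of -0.03 ± 0.11.

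SCP2, a thiolase and lipid carrier, had 193 ± 11.1 and 203 ± 16.0 CPM (log2 fold change 0.07 ± 0.06), and ACAA1, the straight-chain thiolase, had 0.06 ± 0.10. The transporter genes ABCD3, for branched acyl-CoA and bile acid precursors, and ABCD4, better known for export of cobalamin from lysosomes, had 0.06 ± 0.08 and 0.10 ± 0.09. The thioesterase genes ACOT8 (peroxisomal) and ACOT13 (mitochondrial), which release free fatty acids from coenzyme A, had 0.16 ± 0.09 and 0.19 ± 0.11. SNX21 on the other strand covers 35.3% of the exon bases of ACOT8, so reads of the pair may have been shared.

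PPARA (ENSG00000186951.16, chromosome 22, 46150521 to 46243756, plus strand) had the largest estimate of the 35. Its values were 28.5, 23.4, 27.4 and 28.5 CPM in DMSO and 36.3, 44.0, 42.2 and 36.2 CPM in AF. All AF libraries lay above all DMSO libraries, and AF replicates 2 and 3 were highest. The means were 26.9 ± 2.43 and 39.7 ± 4.00 CPM, a log2 fold change of 0.56 ± 0.10 (95% interval 0.35 to 0.77, edgeR adjusted p = 0.00154), or 47.4%. Per length, over 13219 annotated exon bases, PPARA was among the least abundant of the 35, at 2.04 ± 0.184 RPKM in DMSO and 3.00 ± 0.303 RPKM in AF.

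The calls for ACSL1, ACSL4 and PPARA held when any single library was left out, whereas those for ACSL5, ECI2 and DECR1 did not. All 6 estimates stayed positive under each of the 19 alternatives, but none of the 6 passed with library totals alone, under which the median log2 fold change of all genes shifted by -0.15. The ribosomal RNA of AF replicate 1 enters those totals, and with its 18 entries left out of the totals 5 of the 6 passed, ACSL5 not (adjusted p = 0.0675). Without AF replicate 1, all 6 passed.

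Of the 29 genes not called, 28 had a 95% interval within 0.5 log2 units on either side of 0, CROT being the exception, and 6 had an unadjusted p below 0.05. Those were ACSL3, SLC27A4, CPT1A, HADHB, HADH and HSD17B4. The median coefficient of variation of the 35 was 6.55% among DMSO and 8.04% among AF libraries. For 8 genes (SLC27A1, CRAT, ACADVL, ACADS, ETFB, ABCD4, ACOX3 and ACAA1) replicate 4 was the lowest library of both groups, and for 5 (ACSL3, ACSL4, ACADSB, DECR1 and ABCD3) it was the highest of both.

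The per-length levels of the 35 genes covered a wide range in DMSO, and their order depends on the annotated exon lengths used. HADHA was highest at 62.4 ± 4.02 RPKM, followed by ACADVL (30.1 ± 2.73), HADHB (29.5 ± 0.138), ACSL1 (28.6 ± 1.17), ACSL4 (25.9 ± 0.951) and ACSL3 (25.4 ± 3.58). From ACADVL to ACSL3, neighbours overlapped in most cases, and over the whole order 25 of 34 neighbouring pairs had overlapping DMSO libraries. CPT1A stood at 10.6 ± 0.078 RPKM and CPT2 at 5.14 ± 0.256. The lowest were ECI2 (1.70 ± 0.209), ACOT13 (1.66), CROT (1.59 ± 0.422) and ACADSB (1.45 ± 0.067). In AF, ACSL1 moved from rank 4 to rank 2 at 38.4 ± 2.22 RPKM, and ACSL5 from rank 25 to rank 20. The ratio of ACSL1 to CPT1A, the activating enzyme to the carnitine step, was 2.69 ± 0.0906 in DMSO and 4.04 ± 0.549 in AF. The 2 ranges of this ratio did not overlap (2.59 to 2.79 and 3.42 to 4.60). That follows from the genes taken singly and is no separate result. In every AF library ACSL1 lay above its DMSO range and CPT1A below its own, in AF replicate 1 only barely for CPT1A.

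**Figure D4:**
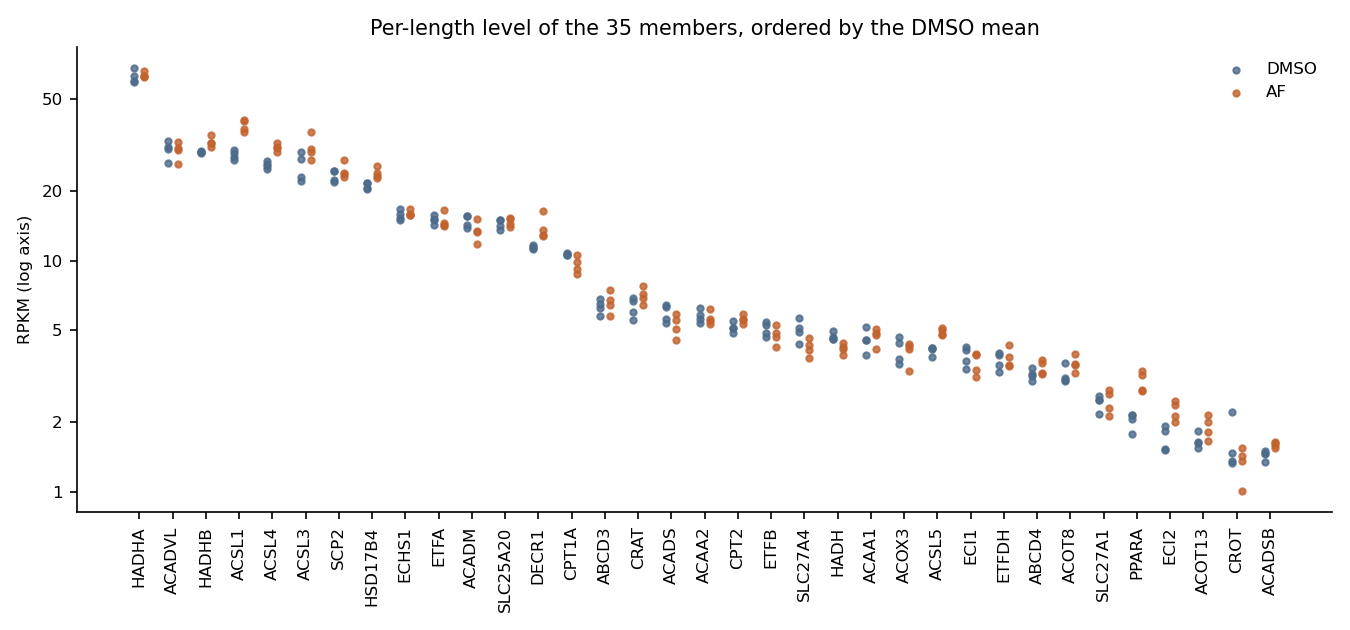
Per-length level (RPKM, log axis) of the 35 genes in each DMSO (blue) and AF (orange) library, ordered along the x axis by the DMSO mean. HADHA stands above all others, and ACSL1 in AF lies above ACADVL and HADHB.

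Other genes of fatty acid metabolism were read from lists of 155 genes, of which 132 passed the filter. In edgeR's test 17 were higher and 9 lower, with a median log2 fold change of 0.04 against 0.01 for all genes tested. Of all genes tested, 7.62% were higher and 7.81% lower, and each list count below is to be read against these shares. Most lists are short, and no test of a list was run. Beyond the ACSL family, 3 of 11 tested synthetase genes rose and 0 fell (median 0.11). ACSF2, a mitochondrial medium-chain synthetase, went from 7.67 ± 0.456 to 10.8 ± 1.68 CPM (log2 fold change 0.49 ± 0.11). The acetyl-CoA synthetase genes ACSS1 and ACSS2 rose by 0.32 ± 0.09 and 0.29 ± 0.08. The ACSS1 call was lost without DMSO replicates 1 or 3 or AF replicate 3 (adjusted p of 0.0538, 0.0592 and 0.0765). The ACSS2 call was lost without DMSO replicates 1, 2 or 4 or AF replicates 2 or 3 (0.0856, 0.0602, 0.0679, 0.0783 and 0.0875).

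Of 8 carnitine supply genes, 2 rose and 0 fell (median 0.18). SLC22A5, the plasma membrane carnitine transporter OCTN2, had 9.61, 8.15, 9.66 and 10.9 CPM in DMSO and 13.7, 13.4, 14 and 11.7 CPM in AF, without overlap (log2 fold change 0.47 ± 0.10, edgeR adjusted p = 0.00613). SLC25A29, first described as a carnitine carrier and known to carry basic amino acids, had 0.46 ± 0.13, and its call was lost without DMSO replicates 1, 3 or 4 or AF replicates 2 or 3 (adjusted p of 0.0536, 0.0900, 0.0508, 0.0842 and 0.0844).

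Malonyl-CoA controls CPT1A, and AMP-activated kinase controls malonyl-CoA. Among 8 tested genes of this gate 1 was higher and 0 lower (median -0.01). PRKAG2, a regulatory subunit of that kinase, had 18.2, 15.4, 16.7 and 18.4 CPM in DMSO and 26.2, 26.8, 25.8 and 24.0 CPM in AF (log2 fold change 0.58 ± 0.10, edgeR adjusted p = 0.000975), without overlap. ACACB, which makes malonyl-CoA at mitochondria, had 28.8 ± 3.21 and 23.0 ± 3.36 CPM, with overlap (log2 fold change -0.32 ± 0.12, edgeR adjusted p = 0.0784). It passed without AF replicate 1 (-0.42, adjusted p = 0.0110), without DMSO replicate 4 (-0.40, 0.0339) and with DESeq2 (-0.33, 0.0229). MLYCD, which removes malonyl-CoA, had -0.29 ± 0.24 at 1.21 to 2.76 CPM.

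Among 12 other genes of peroxisomal oxidation 0 rose and 1 fell with edgeR (median 0.02), and 1 was higher and 1 lower at an unadjusted p below 0.05.

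Of 16 peroxisome assembly genes 4 rose and 1 fell (median 0.17). PEX19, a membrane protein chaperone, rose by 0.22 ± 0.06, a call lost without DMSO replicates 1 or 3 (adjusted p of 0.0531 and 0.0546). PEX6, which encodes an ATPase, had 0.36 ± 0.11 and PEX10 had -0.43 ± 0.13, both named after their values were seen. Each of these last calls was lost on leaving out any one of 5 libraries. Those were DMSO replicates 1, 3 and 4 and AF replicates 2 and 3 for PEX6 (adjusted p 0.0733, 0.117, 0.0836, 0.114 and 0.117), and DMSO replicates 1, 2 and 3 and AF replicates 2 and 3 for PEX10 (0.0577, 0.0582, 0.134, 0.0547 and 0.126).

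The other thioesterase and acyl-CoA binding genes had 1 rise and 2 falls among 12 tested (median -0.02). ACOT11 and ACOT7, which hydrolyse long-chain acyl-CoA, fell by 0.81 ± 0.12 and 0.69 ± 0.11 on the log2 scale, from 12.9 ± 1.58 to 7.45 ± 0.927 CPM and from 13.4 ± 1.62 to 8.37 ± 1.10 CPM. Neither gene's groups overlapped. ACBD3, a Golgi scaffold with an acyl-CoA binding domain, rose by 0.23 ± 0.06, a call lost without DMSO replicates 2 or 3 (adjusted p of 0.0543 and 0.0510).

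Among 15 tested regulators of the pathway 2 rose and 1 fell (median 0.05). PPARD, a receptor related to PPARA, had 124, 111, 106 and 118 CPM in DMSO and 154, 147, 136 and 126 CPM in AF (log2 fold change 0.30 ± 0.07, edgeR adjusted p = 0.0102), without overlap. PPARG had 56.4 ± 2.18 and 62.0 ± 2.13 CPM (0.14 ± 0.05, edgeR adjusted p = 0.110). ESRRA, the estrogen-related receptor α of oxidative metabolism, fell by 0.37 ± 0.09, from 38, 39.9, 35.3 and 35.8 CPM to 30.8, 29.2, 28.8 and 26.3 CPM. LPIN1, a phosphatase and PPARα coactivator, rose by 0.38 ± 0.09, a call lost without DMSO replicates 2 or 3 (adjusted p of 0.0522 and 0.0529).

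PPAR target genes outside beta-oxidation had 2 rises and 4 falls among 10 tested, with a median of -0.26. PDK4, the kinase that shuts off pyruvate dehydrogenase when fat is burned, had 21.2, 26.7, 27.5 and 24.2 CPM in DMSO and 11.4, 7.89, 8.72 and 14.7 CPM in AF. The groups lay far apart, at a log2 fold change of -1.23 ± 0.16 (edgeR adjusted p = 0.000182), the opposite sign to PPARA. The other 3 that fell, named after their values were seen, were the fatty acid binding protein genes FABP3 (-1.05 ± 0.23, at 0.813 to 2.72 CPM) and FABP4 (-0.50 ± 0.13) and the lipid droplet coat gene PLIN2 (-0.35 ± 0.09). The FABP4 call was lost without AF replicate 3 (adjusted p = 0.0555) and the PLIN2 call without DMSO replicates 2 or 3 or AF replicates 2 or 3 (0.0718, 0.0677, 0.0605 and 0.0792). The 2 that rose were CYP27A1, a sterol hydroxylase (0.85 ± 0.09), and TXNIP, a thioredoxin-binding regulator of glucose uptake (0.33 ± 0.07).

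Ketone body genes had 2 rises and 0 falls among 6 tested (median 0.03). OXCT2, known as the testis form of the ketone-using transferase, rose by 0.72 ± 0.19 at 1.20 to 3.28 CPM. It did not pass once DMSO replicate 3 (adjusted p = 0.0598) or AF replicate 3 (adjusted p = 0.0653) was left out. With edgeR 0 of 17 citric acid cycle genes were called (median -0.03), with 2 higher and 2 lower at an unadjusted p below 0.05 and 1 lower with DESeq2. Of 18 genes of other acyl-CoA dehydrogenases and branched-chain or propionyl-CoA breakdown 0 were called with edgeR (median 0.03), with 4 higher and 1 lower at an unadjusted p below 0.05 and 2 higher and 1 lower with DESeq2.

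**Figure D5:**
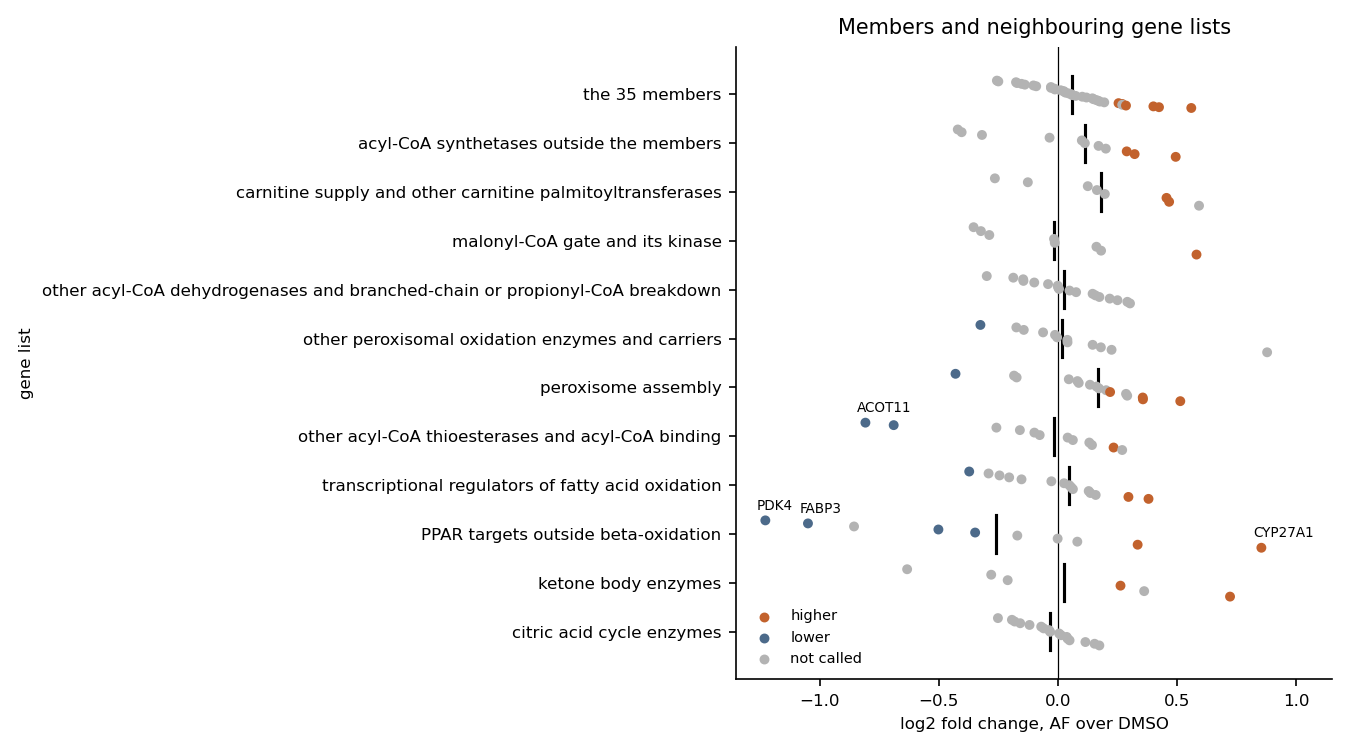
Log2 fold change (x axis, AF over DMSO) of each tested gene of the 35 and of 11 other lists (y axis), with orange for higher, blue for lower, gray for not called and a bar at each list's median. The PPAR target list has its median at -0.26, and the medians of the other lists lie between -0.03 and 0.18.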

How the data were processed

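Poly-A RNA of 8 libraries was measured. The authors deposited raw counts per gene, whole numbers without normalisation. Per the submitters' processing notes, tools were STAR 2.6.1d, featureCounts and Subread 1.6.3, on GRCh38. Which annotation and strand setting were used, and how multi-mapped reads were handled, is not given in the sources used here, so values of pseudogenes, paralogs and overlapping genes are uncertain. Libraries were prepared from 250 ng of total RNA with a stranded kit, per the labels' protocols. Groups and replicate numbers came from the sample titles.

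The fit used edgeR 4.0.16 (R 4.3.3) with TMM scaling factors (0.679 in AF replicate 1, 1.04 to 1.08 in the others), the filterByExpr defaults, glmQLFit and glmQLFTest, two-sided, no block, 6 residual degrees of freedom, Benjamini-Hochberg adjustment, threshold 0.05. A standard error is the log2 fold change divided by the square root of F. RPKM uses the joined length of all exons of a gene in GENCODE 29, which can exceed that of its mRNA. The biological coefficient of variation was 12.8%. Counting error limits genes near the lowest counts most, and no molecular identifiers are described. All libraries entered singly. Every pair differed by more than sampling noise, which separate preparations of the same culture would do too, so this does not show separate cultures. Within DMSO the closest pairs were 2 with 3 and 1 with 4 (chi-square per degree of freedom 2.95 and 4.95), and within AF 2 with 3 (4.39). The division into replicates 1 and 4 against 2 and 3 is not in the labels, was known from earlier results and enters the alternatives only. Promoter windows are the 250 bases upstream in RefSeq.

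The 35 genes, the other lists and the alternatives were chosen with earlier results of these data known, so no list is independent evidence. Among the 35, per-library values are given for called genes and for 14 genes whatever their result. Those of HADH, SLC27A4 and CROT are given outside this rule. From each other list up to 3 called genes with the smallest p are named, and PPARD, PPARG, PDK4, ACACB and MLYCD whatever their result. A few genes covered by this rule for the other lists are left out of the text. Alternatives were DESeq2 1.42.0, other scalings and filters, blocks, subsets and sums of libraries, and leaving out each library. Ribosomal RNA left out of totals was added after the data were seen.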

Additional observations from a re-analysis of the deposited data

Results flagged for a closer look

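Among the 35 genes, 4 of 70 groups of 4 libraries held a value far from the rest (a gap to the next library, as a share of the group's range, above Dixon's 95% critical value), and chance gives about 1 in 20, or 3.5 groups. CROT was at 11.05 CPM in DMSO replicate 4, against 6.60 to 7.32 CPM in the other DMSO libraries. ACSL5 was at 16.2 CPM in DMSO replicate 4, against 17.6 to 17.8 CPM. ETFA was at 83.3 CPM in AF replicate 4, against 71.2 to 72.9 CPM in the other AF libraries. ACOT8 was at 15.2 CPM in DMSO replicate 2, against 12.7 to 13.1 CPM.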

How the results depend on the processing

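Under 19 alternatives no value changed sign among called results. With library totals alone, 0 of the 35 genes were higher and 0 lower, 183 and 700 of all genes (20.7% of calls higher, against 49.4%), and 1 of the other pathway genes was higher and 6 lower, and 10 of the 35 estimates were positive and 25 negative. With totals without ribosomal RNA entries, 5 of the 35 were higher and 1 lower, and 40.1% of calls were higher. With replicates 1 and 4 fitted alone (2 libraries per group), 0 of the 35, 115 higher and 97 lower of all genes, and 1 higher and 1 lower of the other pathway genes were called. With replicates 2 and 3 alone, 8 of the 35 were higher (the 6 with ACSL3 and HSD17B4) and 5 lower (ACADM, ACADS, CPT1A, HADH and SLC27A4), 2645 higher and 2709 lower of all genes, and 27 higher and 26 lower of the other pathway genes. In these subsets PPARA had log2 fold changes of 0.34 and 0.77, ACSL1 0.33 and 0.52, and ACSL4 0.24 and 0.27. A filter at a mean of 5 CPM gave 1 lower of the 35, HADH, as did a term for replicates 1 and 4 against 2 and 3 (1 lower). Other pathway genes lower were 14 with DESeq2 and 14 with no filter, against 9. Leaving out each library gave 3 to 7 higher and 0 to 1 lower of the 35, 768 to 1462 higher and 833 to 1502 lower of all genes, and 9 to 18 higher and 5 to 13 lower of the other pathway genes. The lowest of the 35 came without DMSO replicate 2 (3 higher), and all genes fell to 768 and 848 without it, 779 and 869 without DMSO replicate 3 and 827 and 833 without AF replicate 3. The other pathway genes higher fell to 9 without DMSO replicate 3 and 11 without AF replicate 3, and those lower to 5 without AF replicate 3. The cause was not tested.

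Replicate numbers are shared by the titles only: deviations of same-numbered libraries correlated at 0.09, 0.13, 0.03 and 0.19, and replicate 3 of either group correlated best with another number. The replicate block gave 9 higher and 1 lower (HADH) of the 35, 2102 higher and 2086 lower of all genes, and 25 higher and 19 lower of the other pathway genes.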
